A study of Arabidopsis thaliana with 6 samples.

Results

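The 10 nuclear genes described here encode the plastid sigma factors SIG1 to SIG6, the retrograde signalling proteins GUN1 and GUN4, and the transcription factors GLK1 and GLK2. They were chosen by locus identifier, and all 10 were found among the 33602 loci listed for each plant and among the 16928 genes that could be tested. Messenger RNA was read from 3 msh1 memory plants (plants 31, 32 and 33) and 3 wild-type plants (plants 22, 23 and 24) of Arabidopsis thaliana. All 6 plants were of the Columbia-0 accession, and the labels call the memory line isogenic with the wild type. Each library came from 1 whole plant frozen at early bolting, after stratification at 4 °C for 2 days and growth at 22 °C under 120 to 150 µmol per square metre per second of light. As background, msh1 memory plants descend from plants in which the organelle-targeted protein MSH1 was suppressed. They no longer carry the suppressing transgene, yet keep altered growth. A single memory line was sampled.

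Chloroplast genes are read in part by a bacterial-type RNA polymerase whose core is encoded in the plastid itself. Its sigma factors, which choose the promoters, are encoded in the nucleus and imported. Signals also run the other way: GUN1, a pentatricopeptide repeat protein of the chloroplast, and GUN4, a tetrapyrrole-binding activator of magnesium chelatase, were found in mutants whose nuclei keep photosynthesis genes on when plastids are damaged. GLK1 and GLK2 are GARP-type transcription factors that switch on nuclear genes for chlorophyll synthesis and light harvesting.

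Each memory library held 4060216 to 5053439 counts, and each wild-type library 5459895 to 5806617. The 10 genes had from 124 to 2546 reads in a library. MSH1 itself stood at 14.2 ± 2.34 CPM in memory plants and 14.1 ± 2.94 CPM in wild-type plants (CPM, read counts scaled to library size with TMM factors; SD, n = 3 each). The 133 plastid loci had no counts in any library, so transcripts that the sigma factors make were not analysed here. Green leaf markers summed to 36476 to 43552 CPM in memory plants and 35517 to 49707 CPM in wild-type plants. Although the plants are labelled as whole, 5 of 9 root markers were at 0 in all 6 libraries, among them RHD6, EXPA7 and IRT1, and 7 of 9 had at most 2 counts in any library. The summed level of the 9 was 10.3 to 21.5 CPM in memory plants and 0.773 to 20.7 CPM in wild-type plants, nearly all of it from PYK10 except in plant 23, where PYK10 had 1 count. Flower organ markers summed to 8.98 to 16.4 CPM in memory plants and 5.94 to 9.09 CPM in wild-type plants. Single markers had low counts and did not all go the same way. AP3 had 4, 7 and 4 counts in memory plants and 0 in every wild type. SEP2 had 5, 7 and 13 in memory plants against 1, 0 and 1 in wild types. SEP1 had 3, 8 and 6 in memory plants against 0, 0 and 6 in wild types. For SEP3 the counts were 10, 8 and 20 against 0, 0 and 10. In the other direction, LAP6 had 12, 10 and 8 in memory plants against 19, 21 and 13 in wild types. SHP1 had 0, 0 and 1 in memory plants against 1, 5 and 1 in wild types. Wild-type plant 23 correlated least with the others, at 0.929 to 0.945 over log2 CPM, against 0.947 to 0.976 for pairs without it.

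None of the 10 genes passed the test between memory and wild-type plants (edgeR quasi-likelihood test, adjusted p under 0.05), where 1.82% of all tested genes did, 0.449% higher and 1.37% lower in memory plants. SIG5 came nearest. It was the 1 gene of the 10 with an unadjusted p under 0.05, also by DESeq2 and by limma voom, and DESeq2 called it. By edgeR, 2174 of all 16928 tested genes had an unadjusted p under 0.05, so such a p does not set SIG5 apart. The other 9 genes had log2 fold changes between -0.20 and 0.23, memory minus wild type, with edgeR adjusted p from 0.690 to 0.987. Their 95% intervals reached no lower than 0.667-fold and no higher than 1.58-fold. Of the 10 log2 fold changes 8 were positive, with a median of 0.14, and over all tested genes 8661 of 16928 were positive, with a median of 0.01. The groups did not overlap in 2 of the 10 genes, SIG5 and GUN1, both higher in memory plants. Over all tested genes the groups did not overlap in 19.7%, 9.52% with memory plants higher and 10.2% with memory plants lower. In whole-plant RNA, fewer cells of a type and less RNA per cell cannot be told apart.

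**Figure D1:**
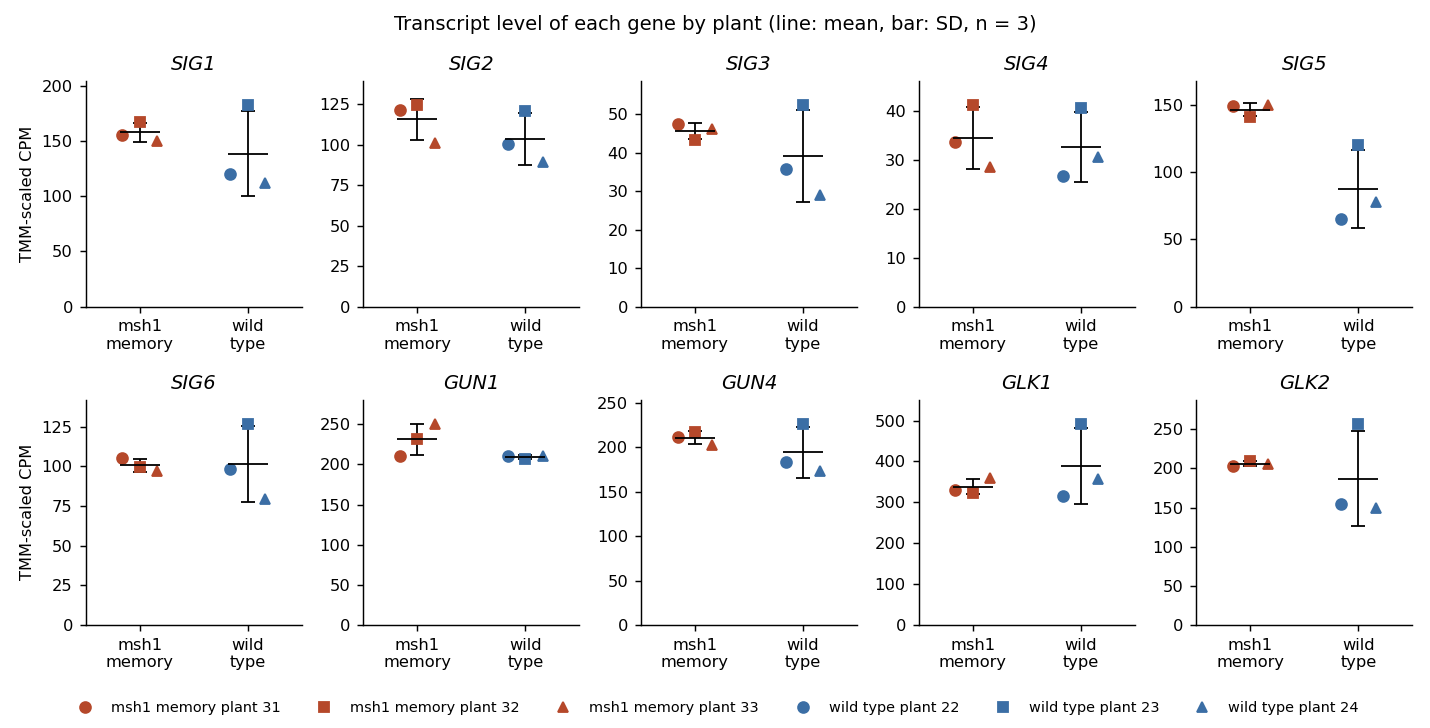
TMM-scaled CPM of the 10 genes in each msh1 memory plant (left of each panel) and each wild-type plant (right), with the mean and SD of 3 plants. Wild-type plant 23, the blue square, is the highest of the 3 wild types in 9 panels, and SIG5 is the panel in which all memory plants, at 141 to 149.8 CPM, stand clear of the wild types.

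SIG5 is the sigma factor known for light and stress responses, and it directs transcription of psbD from a promoter that blue light activates. The gene (AT5G24120) lies on the minus strand of chromosome 5 at 8157151 to 8160343 (TAIR10.1). It stood at 149, 141 and 149.8 CPM in memory plants 31, 32 and 33, against 64.8, 119.9 and 77.8 CPM in wild-type plants 22, 23 and 24. The memory plants were close together and all above the highest wild type, plant 23, while plants 22 and 24 were far lower. The group means were 147 ± 4.85 CPM in memory plants and 87.5 ± 28.8 CPM in wild-type plants (SD, n = 3 each). That is 1.68-fold, with a 95% interval of 1.24 to 2.28. On the log2 scale the change was 0.75 with a standard error (SE) of 0.20 (edgeR adjusted p = 0.0999). Its p was 551st among the 16928 genes. DESeq2 gave an adjusted p of 0.0223 and so called 1 of the 10 genes, where it called 2.83% of all genes. With library totals in place of TMM, edgeR also called SIG5 (adjusted p = 0.0468), as it did 1.6% of all genes. Without wild-type plant 23 the log2 fold change was 1.04 (edgeR adjusted p = 3.63e-05), and without any other plant it lay between 0.57 and 0.78 with adjusted p from 0.245 to 0.362.

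Clock and stress markers differed between the same plants. The mean log2 CPM of 6 dawn clock genes was 6.28, 6.27 and 6.52 in memory plants 31, 32 and 33, and 5.46, 5.84 and 5.03 in wild-type plants 22, 23 and 24. Among wild types this mean was highest in plant 23, as were SIG5 and most of the other genes described here. Plants 22 and 24 stood in opposite order. The dawn mean was higher in plant 22 (5.46, against 5.03 in plant 24). SIG5 was higher in plant 24 (77.8 CPM, against 64.8 CPM in plant 22). All 6 dawn genes had positive log2 fold changes, and 2 were called higher, where 0.449% of all tested genes were. The mean over the 7 tested of 8 evening clock genes was 3.59 to 3.93 in memory plants and 5.57 to 5.98 in wild-type plants. All 7 had negative log2 fold changes, and 6 were called lower, where 1.37% of all tested genes were. For 13 touch and wound genes the mean was 3.02 to 3.11 in memory plants and 4.27 to 6.30 in wild-type plants, highest in plant 24. All 13 had negative log2 fold changes, and 3 were called lower. Summed levels of the dawn genes were 654 to 770.5 CPM in memory plants and 339.7 to 608 CPM in wild-type plants. Evening genes summed to 176 to 224 CPM in memory plants and 597 to 762 CPM in wild-type plants. Touch and wound genes summed to 182 to 215 CPM in memory plants and 371 to 1396 CPM in wild-type plants. The part of these differences in the SIG5 values was not tested.

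The 5 other sigma factors did not differ detectably. SIG1 (AT1G64860, chromosome 1, 24097736 to 24100970), a general factor that also reads photosystem genes, stood at 155, 167 and 150.03 CPM in memory plants and 120.4, 182 and 112 CPM in wild-type plants. The wild types lie on both sides of the memory plants, plant 23 above them and plants 22 and 24 below. SIG2 (AT1G08540, chromosome 1, 2703295 to 2706860), which is needed for several plastid transfer RNA genes, stood at 122, 125 and 101 CPM in memory plants and 100.4, 121 and 89.1 CPM in wild-type plants. SIG6 (AT2G36990, chromosome 2, 15537225 to 15540139) acts broadly in young seedlings. It stood at 105, 99.6 and 97.1 CPM in memory plants and 98.2, 127 and 79.2 CPM in wild-type plants, a log2 fold change of -0.01 with a 95% interval of -0.38 to 0.36. Its sign turned under several alternatives.

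SIG3 and SIG4 complete the family. SIG3 (AT3G53920, chromosome 3, 19960789 to 19963980), which reads psbN, averaged 45.7 ± 2.05 CPM in memory plants and 39.1 ± 12.005 CPM in wild-type plants (SD, n = 3 each). SIG4 (AT5G13730, chromosome 5, 4429095 to 4430901), which reads ndhF, averaged 34.6 ± 6.32 CPM in memory plants and 32.6 ± 7.19 CPM in wild-type plants. SIG4 shares 201 bp with AT5G13720 on the other strand. The kit does not mark strand, so reads there cannot be assigned, and AT5G13720 stood at 25.5 ± 3.00 CPM in memory plants and 31.6 ± 6.43 CPM in wild-type plants.

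**Figure D2:**
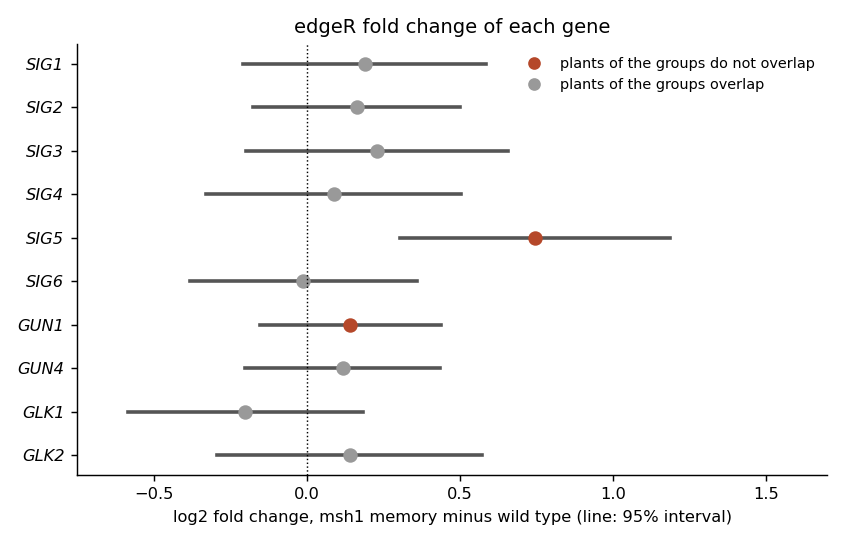
Log2 fold change of each gene, msh1 memory minus wild type, from edgeR (point) with its 95% interval (line). The SIG5 interval, 0.30 to 1.19, is the 1 interval that does not cross 0; coloured points mark SIG5 and GUN1, whose groups do not overlap.

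Levels were compared between genes per kilobase of annotated exon. GLK1 was highest, at 195 ± 10.6 CPM per kb in memory plants and 224 ± 53.3 in wild-type plants. GUN4 and GLK2 came next, at 162 ± 5.53 and 119 ± 1.88 CPM per kb in memory plants and 149.8 ± 21.9 and 108 ± 35.1 in wild-type plants. The ranges of these neighbours were separate in memory plants, while GUN4 and GLK2 overlapped in wild-type plants. GUN1 stood below GLK2 in every plant, at 66.6 ± 5.72 CPM per kb in memory plants and 60.4 ± 0.695 in wild-type plants, and its range overlapped that of SIG1 in both groups.

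SIG1 had the highest mean of the sigma factors, at 66.4 ± 3.74 CPM per kb in memory plants and 58.3 ± 16.2 in wild-type plants (SD, n = 3 each). SIG2 followed at 56.5 ± 6.18 in memory plants and 50.5 ± 7.90 in wild-type plants, where its range overlapped that of SIG1. SIG5 was level with SIG2 in memory plants, at 55.6 ± 1.84 CPM per kb, where their ranges overlapped. Per kb of the longest transcript, which is shorter for SIG5, it was above SIG2 in those plants without overlap. By that length SIG5 averaged 67.7 ± 2.24 in memory plants, near SIG1 at 71.6 ± 4.04. In wild-type plants SIG5 stood at 33.2 ± 10.9 CPM per kb, below SIG6 at 49.6 ± 11.7, although those ranges overlapped too. SIG6 was at 49.2 ± 1.96 CPM per kb in memory plants, below every SIG5 value of that group. SIG4 and SIG3 came last in both groups, at 23.8 ± 4.35 and 20.6 ± 0.921 CPM per kb in memory plants and 22.4 ± 4.95 and 17.6 ± 5.40 in wild-type plants, with overlapping ranges.

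As a share of the summed CPM per kb of the 6 sigma factors, SIG5 made up 20.4%, 19.0% and 22.1% in memory plants 31, 32 and 33, against 11.9%, 15.4% and 15.3% in wild-type plants 22, 23 and 24. The shares did not overlap between the groups, and plant 23 did not stand apart from plant 24 on this scale. SIG6 made up 18.1 ± 0.677% in memory plants and 21.4 ± 1.63% in wild-type plants (SD, n = 3 each), also without overlap. SIG1, SIG2, SIG3 and SIG4 had overlapping shares. Shares of 1 sum are bound to each other, so a larger share of SIG5 lowers the rest, and they were not tested. The sum itself was 272 ± 12.8 CPM per kb in memory plants and 232 ± 55.2 in wild-type plants.

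**Figure D3:**
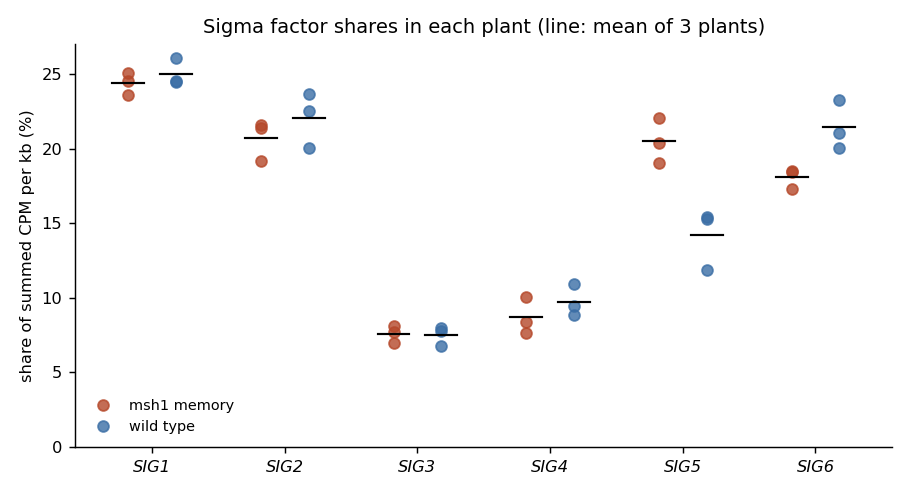
Share of each sigma factor in the summed CPM per kb of the 6, by plant, with the mean of 3 plants as a line; msh1 memory plants are left of wild-type plants. SIG5 lies between 19.0% and 22.1% in memory plants and between 11.9% and 15.4% in wild-type plants.

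The ratio of SIG5 to another sigma factor within a plant does not depend on how libraries are scaled. The log2 ratio of SIG5 to SIG1 in CPM per kb was -0.26 ± 0.13 in memory plants and -0.83 ± 0.19 in wild-type plants (SD, n = 3 each). For SIG6 as the partner it was 0.18 ± 0.07 in memory plants and -0.60 ± 0.32 in wild-type plants. The ratios of SIG5 to each of the 5 others were higher in every memory plant than in any wild type, with mean differences of 0.53 to 0.78. All 5 ratios share the SIG5 level, which by itself did not overlap between the groups, so they are not 5 separate results. SIG5 was chosen for these ratios after its values were seen, so they are given without a test.

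Promoter windows of the sigma factor genes are shown because 4 of the 6 held a short motif that the window of SIG5 lacked. Each runs from 250 bases before to 50 bases after the annotated gene start, was cut from the TAIR10.1 genome (RefSeq) and is printed on the gene's own strand. The windows are chr5:8160294-8160593 on the minus strand for SIG5, and chr1:24097486-24097785 and chr1:2703045-2703344 on the plus strand for SIG1 and SIG2. Capitals mark matches to TGGGCC on either strand, the core of the site II-type element found before many genes for plastid and ribosomal proteins.
SIG5: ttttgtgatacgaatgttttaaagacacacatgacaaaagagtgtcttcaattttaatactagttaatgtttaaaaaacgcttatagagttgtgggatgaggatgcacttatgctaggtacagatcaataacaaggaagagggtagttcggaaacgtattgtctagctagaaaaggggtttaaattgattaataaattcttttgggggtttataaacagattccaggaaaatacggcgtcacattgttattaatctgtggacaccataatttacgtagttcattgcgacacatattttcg
SIG1: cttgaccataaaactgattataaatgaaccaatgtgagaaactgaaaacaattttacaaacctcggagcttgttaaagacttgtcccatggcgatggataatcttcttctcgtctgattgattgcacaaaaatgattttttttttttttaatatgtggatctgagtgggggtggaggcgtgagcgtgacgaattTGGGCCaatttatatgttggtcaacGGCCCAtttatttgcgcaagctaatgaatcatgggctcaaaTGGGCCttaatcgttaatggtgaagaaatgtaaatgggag
SIG2: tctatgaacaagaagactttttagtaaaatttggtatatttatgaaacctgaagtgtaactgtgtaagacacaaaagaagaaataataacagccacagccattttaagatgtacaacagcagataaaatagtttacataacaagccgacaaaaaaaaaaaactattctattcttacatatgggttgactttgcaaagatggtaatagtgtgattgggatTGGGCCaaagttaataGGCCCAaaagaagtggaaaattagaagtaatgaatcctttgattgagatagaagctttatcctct
SIG1 had 3 matches and SIG2 had 2, and SIG4 and SIG6 had 1 each, while the windows of SIG3 and SIG5 had none. Of 27443 protein-coding genes, 15.5% had a match in the same window, and 4 of the 10 genes described here did, all 4 of them sigma factors. This motif was chosen after the sequences were seen. The G-box CACGTG (7.68% of all windows) was in none of the 10, and the evening element AAAATATCT (2.82%) was in that of SIG3 alone. The CCA1-binding site AAAAATCT (7.88%) was in the windows of SIG4, GUN4 and GLK2. None of these motifs overlapped another in the 10 windows. A match is a run of letters and not a shown site of binding, and longer promoters were not searched.

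GUN1 and GUN4 did not differ detectably. GUN1 (AT2G31400, chromosome 2, 13386954 to 13390854) stood at 210.9, 231 and 251 CPM in memory plants and 210.7, 206 and 210.6 CPM in wild-type plants. The groups do not overlap, but the lowest memory plant and the highest wild type are almost equal. GUN1 differed by 1.104-fold, with a 95% interval of 0.900 to 1.35 (edgeR adjusted p = 0.727). It was the 1 gene of the 10 in which plant 23 was not the highest wild type and in which wild types varied less than memory plants.

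GUN4 (AT3G59400, chromosome 3, 21948501 to 21949796) stood at 211, 217 and 203 CPM in memory plants and 183, 226 and 173 CPM in wild-type plants. The fold was 1.08, with a 95% interval of 0.869 to 1.35 (edgeR adjusted p = 0.811). Of its 1296 annotated bases, 946 overlap AT3G59410 on the other strand. AT3G59410 stood at 37.1 ± 9.14 CPM in memory plants and 44.4 ± 9.12 CPM in wild-type plants (SD, n = 3 each), so part of the GUN4 reads may be shared with it.

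GLK1 and GLK2, which act partly in place of each other in leaves, did not differ detectably in level. GLK1 (AT2G20570, chromosome 2, 8855302 to 8857758) stood at 330.4, 324 and 358 CPM in memory plants and 316, 492 and 356 CPM in wild-type plants. Plant 23 was far above the other 5, which lay together. The log2 fold change of GLK1 was -0.20 with a 95% interval of -0.59 to 0.18 (edgeR adjusted p = 0.695), and 0.01 without plant 23. GLK2 (AT5G44190, chromosome 5, 17798262 to 17800926) stood at 203, 209.6 and 205 CPM in memory plants and 154, 257 and 149.7 CPM in wild-type plants. The memory plants lay in the gap between plant 23 and the other wild types. GLK2 had a log2 fold change of 0.14 with a 95% interval of -0.29 to 0.57 (edgeR adjusted p = 0.835), and 0.44 without plant 23 (adjusted p = 0.0251).

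The ratio of the pair within a plant was compared as well. GLK1 was 1.63, 1.55 and 1.75 times as abundant as GLK2 per kilobase in memory plants 31, 32 and 33, against 2.05, 1.92 and 2.38 times in wild-type plants 22, 23 and 24. All memory plants lay below all wild types, and plant 23 was the lowest wild type, nearest to the memory plants. The mean log2 ratio was 0.71 ± 0.09 in memory plants and 1.07 ± 0.16 in wild-type plants (SD, n = 3 each). The difference of -0.36 had an exact permutation p of 0.1 (two-sided), the smallest that 3 plants against 3 allow. It lay between -0.43 and -0.27 when any 1 plant was left out.

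**Figure D4:**
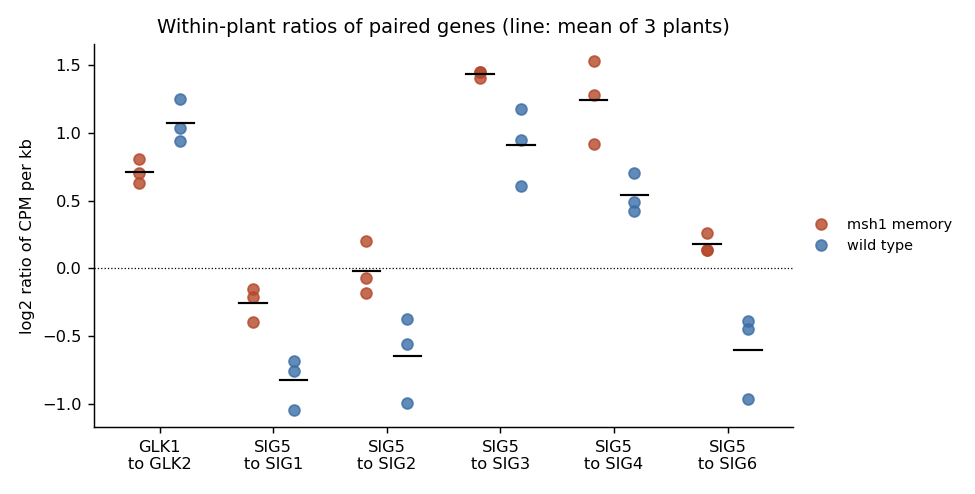
Log2 ratio of CPM per kb of GLK1 to GLK2, and of SIG5 to each other sigma factor, in each plant, with the mean of 3 plants as a line; msh1 memory plants are left of wild-type plants. Memory plants lie below the wild types for GLK1 to GLK2, with means of 0.71 in memory plants and 1.07 in wild-type plants, and above them in each SIG5 ratio.

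The windows around the starts of the GLK genes are shown because the ratio compares this pair. They are chr2:8855052-8855351 for GLK1 and chr5:17798012-17798311 for GLK2, both on the plus strand of TAIR10.1 (RefSeq), with the same limits as above. The capitals mark the CCA1-binding site AAAAATCT in GLK2.
GLK1: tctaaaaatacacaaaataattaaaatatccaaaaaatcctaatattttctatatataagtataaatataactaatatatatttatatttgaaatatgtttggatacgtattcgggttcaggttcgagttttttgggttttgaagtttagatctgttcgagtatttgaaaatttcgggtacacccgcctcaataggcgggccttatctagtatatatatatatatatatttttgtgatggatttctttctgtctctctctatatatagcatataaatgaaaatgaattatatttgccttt
GLK2: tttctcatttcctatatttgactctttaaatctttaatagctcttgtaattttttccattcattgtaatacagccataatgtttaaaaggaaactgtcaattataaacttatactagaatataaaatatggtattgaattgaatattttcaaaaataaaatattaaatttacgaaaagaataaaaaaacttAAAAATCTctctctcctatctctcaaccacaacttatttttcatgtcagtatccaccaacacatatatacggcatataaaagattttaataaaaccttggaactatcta
The first base of that match is 59 bases before the start of GLK2, and GLK1 had no match to any of the 4 motifs.

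Wild-type plant 23 stood apart in most of these genes. It was the highest wild type for 9 of the 10 genes and the highest of all 6 plants for 6, namely SIG1, SIG3, SIG6, GUN4, GLK1 and GLK2. Its level relative to the mean of plants 22 and 24 ran from 0.980 for GUN1 to 1.69 for GLK2. Wild-type SDs exceeded memory SDs in 9 of the 10 genes. Plant 23 also had the highest summed antenna transcripts (130810 CPM, against 88563 to 114230 CPM in the other 5 plants) and the highest green leaf markers. Without plant 23, edgeR called SIG1, SIG5 and GLK2, 3 of the 10, as 5.93% of all genes were called. SIG1 then had a log2 fold change of 0.44 (edgeR adjusted p = 0.0305).

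The partners of the plastid RNA polymerase mostly had positive fold changes, and the 1 that passed the test fell. Of 19 tested, 1 fell and none rose, where 1.37% of all tested genes fell and 0.449% rose. Log2 fold changes were positive for 15 of the 19 (78.9%), against 51.2% of all tested genes. The median of the list was 0.17, against 0.01 for all tested genes. The groups did not overlap in 42.1% of the list, 5 genes higher and 3 lower in memory plants, against 19.7% of all tested genes. SIB1, a nuclear-encoded VQ-motif protein that binds SIG1, stood at 54.5, 38.4 and 49.9 CPM in memory plants and 77.9, 110.2 and 95.2 CPM in wild-type plants. Every memory plant was below every wild type. The log2 fold change of SIB1 was -0.99 (SE 0.17), at an edgeR adjusted p of 0.0138. That call ended without memory plant 31, 32 or 33 (adjusted p = 0.0729, 0.113 and 0.104). SIB2, its close relative, averaged 29.3 ± 6.13 CPM in memory plants and 36.6 ± 3.83 CPM in wild-type plants (SD, n = 3 each) and did not pass. It is named outside the rule. FLN2 and PAP4, which are polymerase-associated proteins named here after their values were seen, averaged 49.5 ± 6.22 and 42.9 ± 1.38 CPM in memory plants and 31.0 ± 6.08 and 28.7 ± 6.20 CPM in wild-type plants (edgeR adjusted p = 0.0811 and 0.137).

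Of 29 tested genes of tetrapyrrole and chlorophyll synthesis 1 fell and none rose, where 1.37% of all tested genes fell and 0.449% rose. The median log2 fold change of the list was 0.03. The groups did not overlap in 10.3% of this list, against 19.7% of all tested genes. PORB, a light-dependent protochlorophyllide oxidoreductase, stood at 728.5, 822 and 593 CPM in memory plants and 1607, 1543.5 and 1659 CPM in wild-type plants. The groups are far apart, and plant 23 did not stand out. The log2 fold change of PORB was -1.17 (SE 0.17), at an edgeR adjusted p of 0.00484, and the adjusted p was 0.0661 without plant 31 and 0.051 without plant 33. PORB overlaps another annotated gene. CHLH (GUN5), the magnesium chelatase subunit that GUN4 activates, averaged 4371 ± 306 CPM in memory plants and 4174.5 ± 1023 CPM in wild-type plants (edgeR adjusted p = 0.927). The genes named GUN2, GUN3 and GUN6, which encode haem oxygenase, phytochromobilin synthase and a ferrochelatase, did not pass either. Their log2 fold changes were 0.22, 0.34 and -0.50. These GUN genes were named outside the rule.

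No retrograde signalling partner passed, of 13 tested, and the median was 0.16. The groups did not overlap in 7.69% of them, against 19.7% of all tested genes. BBX16, a B-box gene that acts downstream of GUN1 and GLK1, had the smallest p, at 58.6 ± 3.83 CPM in memory plants and 40.5 ± 15.8 CPM in wild-type plants (SD, n = 3 each; edgeR adjusted p = 0.362). In wild-type plant 23 it stood at 58.6 CPM, within the memory range. Without plant 23 its log2 fold change was 0.90, against 0.54 with all plants. EdgeR then called it (adjusted p = 4.89e-04), as it did 5.93% of all genes. The transcription factor gene ABI4, listed but not testable and named outside the rule, had 0 counts in all 6 plants, which allows up to 0.522 to 0.694 CPM (3 counts in a library, counting error only).

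Among 7 transcription factors of chloroplast development none passed, with a median of 0.35. The groups did not overlap in 57.1% of this list, against 19.7% of all tested genes. Of those without overlap, ANAC092 alone was lower in memory plants and the rest were higher. ANAC092 (ORE1), a senescence factor that antagonises the GLK proteins, stood at 7.48, 6.84 and 5.32 CPM in memory plants and 12.2, 11.99 and 25.6 CPM in wild-type plants. That is a log2 fold change of -1.34 (SE 0.32), at an edgeR adjusted p of 0.0639. The groups do not overlap, and the highest value is that of plant 24, as for the touch markers. DESeq2 called ANAC092 (adjusted p = 0.0166), as it did 2.83% of all genes. EdgeR with no filter on counts also called it (adjusted p = 0.0219), as it did 453 of 22461 genes. So did edgeR without plant 23 (adjusted p = 0.00455). Without plant 23 edgeR called 3 of the 7, and 5.93% of all genes. HYH, a partner of HY5 in light signalling, and GNC, a GATA factor, were named after their values were seen. HYH averaged 11.8 ± 0.358 CPM in memory plants and 6.26 ± 2.26 CPM in wild-type plants (edgeR adjusted p = 0.162). GNC averaged 58.0 ± 2.94 CPM in memory plants and 36.8 ± 9.23 CPM in wild-type plants (edgeR adjusted p = 0.0889).

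None of 18 light-harvesting antenna genes, which the GLK factors activate, passed. Of these 16 had negative log2 fold changes, and the median of the list was -0.12. The groups did not overlap in 16.7% of the list, against 19.7% of all tested genes. LHCB1.4 had the smallest p, at 3028.5 ± 524 CPM in memory plants and 4684 ± 672 CPM in wild-type plants (edgeR adjusted p = 0.137), and reads may be split among the near-identical LHCB1 copies. DESeq2 called LHCB1.4 (adjusted p = 0.00771), as it did 2.83% of all genes, and so did edgeR without plant 23 (adjusted p = 0.0324). Without plant 23 edgeR called 2 of the 18, and 5.93% of all genes.

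**Figure D5:**
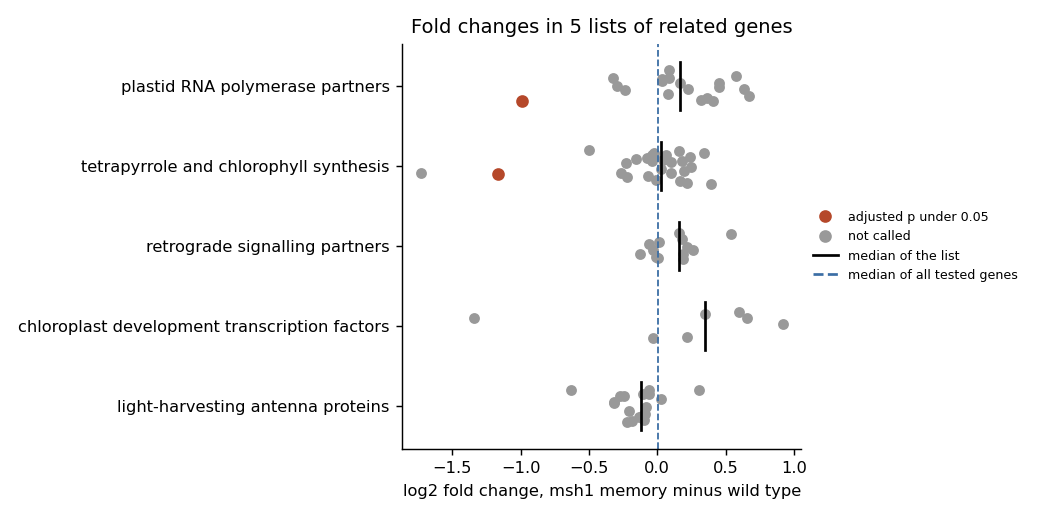
Log2 fold change, msh1 memory minus wild type, of each tested gene in 5 lists of related genes, with the list median (black line) and the median of all tested genes (dashed line, 0.01). The coloured points are SIB1 at -0.99 and PORB at -1.17, the genes called in these lists.

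The genes whose levels followed SIG5 most closely over the 6 plants were AT2G31560, NEET, AT1G38131, HPA1 and AT2G42975, with Pearson correlations of log2 CPM from 0.986 to 0.997. NEET encodes an iron-sulphur protein of the organelles and averaged 36.2 ± 0.692 CPM in memory plants and 21.5 ± 7.18 CPM in wild-type plants (SD, n = 3 each). In plant 23 NEET stood at 29.8 CPM, between plants 22 and 24 (17.1 and 17.6 CPM) and the memory plants, as SIG5 did. None of the 5 passed the test. These are the highest correlations over all tested genes, across 6 plants that share groups and libraries, and describe likeness in these plants alone.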

How the data were processed

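Each plant has 1 deposited table of raw counts, reads per gene as the authors counted them. TAIR10 and DESeq2 are named in the submitters' processing notes. How reads were aligned and counted, with which strand setting, is not given in the sources used. Per the labels' protocols, the TruSeq RNA v2 kit was used (it leaves strand unmarked), with reads of 150 bp.

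The test was that of edgeR 4.0.16 under R 4.3.3. Low genes were removed by filterByExpr, set to a minimum count of 10 and a minimum total of 15. The minimum count is applied as CPM in enough libraries, so a tested gene can have fewer than 10 counts in some plants. TMM factors then set the library sizes. Groups were compared by the two-sided robust quasi-likelihood test, with Benjamini-Hochberg adjustment over 16928 genes and a threshold of 0.05. The SE is the log2 fold change over the root of F. DESeq2 1.42.0 and limma voom 3.58.1 were alternatives, with other scalings, filters and each plant left out. The labels describe 6 individual plants, and replicate libraries differed by more than sampling noise (chi-square per degree of freedom at least 3.12).

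Positions, exon lengths and promoter windows come from the TAIR10.1 annotation and genome, which matched 32835 of 33602 loci. The files hold no coordinates. No promoter table was at hand, so windows were cut from that genome. CPM per kb divides by the union of annotated exons.

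The members and lists were chosen with earlier results of these data known. The genes named are the 10 members, from each of 5 pathway lists up to 4 called genes in order of p (or, with none called, the 1 of smallest p), and the 5 genes most correlated with the member of smallest p. Pathway list genes named beyond this rule are marked where they appear.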

Additional observations from a re-analysis of the deposited data

How the results depend on the processing

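SIG5 kept its direction in all 15 alternatives, and its edgeR or DESeq2 adjusted p ranged from 3.63e-05 to 0.362. The 10 members held 1 call with library totals and 1 with DESeq2, and 0 to 3 when 1 plant was left out. Over all genes there were 308 calls, 76 higher and 232 lower. DESeq2 called 524, 118 higher and 406 lower, and a threshold of 0.01 left 98, 17 higher and 81 lower. With no filter on counts, edgeR was run on the 22461 genes with any reads. It then called 453, 120 higher and 333 lower. Leaving out 1 plant gave 34 to 1019 calls, 6 to 457 higher and 24 to 562 lower, with the most without plant 23. The 5 pathway lists held 2 calls, 4 with DESeq2 or without the filter, 1 at 0.01, and 0 to 9 with 1 plant left out. The log2 fold change of SIG6 turned positive with library totals (0.063), upper-quartile scaling (0.021) and voom (0.013), and ranged from -0.16 to 0.19 with 1 plant left out. With 1 plant left out that of SIG4 ranged from -0.055 to 0.28, and that of GLK1 from -0.33 to 0.010. Per kb of the longest transcript the SIG5 share was 23.4% in memory plants and 16.4% in wild-type plants, because its exon union is longer, and the SIG6 share in memory plants was 17.0%. No paired analysis was possible because the groups share no plant numbers. The cause of the other changes was not tested. With 3 plants a group, spread between plants rather than counting limits the precision: the biological coefficient of variation of the 10 genes was 13.0% to 18.2%.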
